A study of Mus musculus with 24 samples.

Results

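BARX1, BARX2, PITX1 and FOXQ1 are genes for 4 DNA-binding transcription factors, and they are 4 of the 7493 genes measured here across 8 tissues. They were selected on their levels in stomach in these same libraries, so their stomach values are a description and carry no test. All animals were mice with a bacterial artificial chromosome that holds human SENCR, a long non-coding RNA gene, and no animals without this transgene were included. Stomach, aorta, brain, heart, kidney, liver, lung and spleen were each measured by bulk RNA sequencing in 3 libraries, 24 in all. The design describes the triplicates as biological, but strain, age, sex and which libraries share an animal are not given in the labels. P-values thus rest on the spread among libraries that may be technical in part, and no comparison between animals with and without the transgene was possible.

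Homeobox and forkhead proteins bind DNA and decide which genes a cell can switch on. In the mouse embryo, Barx1 is made in the mesenchyme of the stomach, where it raises secreted antagonists of Wnt signalling and so lets the endoderm above it become gastric and not intestinal epithelium. Foxq1 is known in mouse stomach from the surface mucous cells, which need it to make the mucin Muc5ac. Pitx1 is best known from the hindlimb and the pituitary, and Barx2 from muscle, hair follicle and other epithelia.

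Values are FPKM, fragment numbers divided by gene length and library depth, from mouse RNA aligned to a human genome. A mouse gene is seen only through the stretches it shares with its human counterpart, so each gene is compared with itself between tissues and not with other genes. FPKM values moved in steps worth 1 read, from which read numbers were recovered for 7483 genes (99.9%). Libraries held 185724 to 626621 assigned reads, and the 3 stomach libraries held 282730, 321172 and 260494. Replicates of a tissue correlated at r = 0.949 to 0.973 across genes. All 4 genes passed the filter of at least 1 FPKM in at least 3 libraries, BARX1 through the 3 stomach libraries alone and PITX1 only because of them, since it reached 1 FPKM in no more than 2 libraries elsewhere.

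BARX1, the stomach mesenchyme homeobox gene, was read in stomach and in no other tissue. It had 9.05, 35.8 and 22.1 FPKM in stomach replicates 1, 2 and 3, against 0 in all 21 libraries of the other 7 tissues. The stomach values lay apart from every other library but spread widely among themselves, with replicate 2 highest and replicate 1 lowest. They rested on 4, 18 and 9 reads, and the exact 95% Poisson intervals of replicates 1 and 2 were 2.47 to 23.2 and 21.2 to 56.6 FPKM, which overlap. The mean in stomach was 22.3 ± 13.4 FPKM (SD, n = 3). Pooled over libraries, stomach had 22.9 FPKM against a limit of 0.228 FPKM, which is what 3 reads in the 21 other libraries together would give, so BARX1 was at least 101-fold higher in stomach. In a single library outside stomach, 3 reads would correspond to 3.09 to 10.2 FPKM, and levels under that were not detectable there. Such intervals and limits hold for counting error alone, since the reads carried no molecular identifiers and need not be separate molecules. In bulk tissue, fewer cells of a type and less RNA per cell cannot be told apart.

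The promoter of mouse Barx1 is shown because it was the only one of the 4 with an entry in the promoter reference used. It spans chr13:48662786-48663085 on the plus strand of GRCm38.p6, from 250 bases before to 50 bases after the RefSeq start. Capitals mark GGGCGG and its reverse complement CCGCCC, the core of the GC box.
Barx1: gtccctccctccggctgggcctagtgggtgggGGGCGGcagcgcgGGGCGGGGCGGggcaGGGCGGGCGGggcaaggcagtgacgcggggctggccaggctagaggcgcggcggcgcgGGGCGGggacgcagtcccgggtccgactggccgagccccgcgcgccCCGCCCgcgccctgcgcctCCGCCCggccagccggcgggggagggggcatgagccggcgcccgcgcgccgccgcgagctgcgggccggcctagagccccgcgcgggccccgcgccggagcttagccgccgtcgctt
The window held 8 such matches, 6 on the plus and 2 on the minus strand, some overlapping, and no TATAAA on either strand. GGGCGG was present on either strand in 35.9% of 32544 RefSeq promoters of this length, and TATAAA in 13.6%. Its GC content was 84.7%, against a median of 53.0% over all these promoters, of which 0.160% were at or above it. Barx2, Pitx1 and Foxq1 had no entry there and are named only.

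PITX1, a bicoid-type homeobox gene, had nearly the same level in each stomach library. It had 38.0, 38.6 and 34.9 FPKM in stomach, against 1.85, 0 and 1.78 FPKM in lung and 0 in the 18 libraries of aorta, brain, heart, kidney, liver and spleen. Stomach and lung did not overlap, and the lung values were a single read in each of replicates 1 and 3. The mean was 37.2 ± 2.01 FPKM in stomach and 1.21 ± 1.05 FPKM in lung (SD, n = 3 each). At least 13, 15 and 11 reads stood behind the stomach values, because recovered reads are a minimum where all counts of a gene share a factor. On these reads, the exact 95% Poisson intervals were 20.2 to 65.0, 21.6 to 63.7 and 17.4 to 62.4 FPKM. The 3 values lie closer together than counting error, so a larger difference between these libraries could have gone unseen. Of all PITX1 reads, 95.1% were in stomach. Each lung value rests on 1 read and PITX1 passed the filter through stomach, so no test between the other tissues is given.

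The same lung libraries carried keratin reads. KRT17, a keratin of basal and squamous epithelium, had 2.86, 0 and 4.11 FPKM in lung replicates 1, 2 and 3. KRT14, another type I keratin of basal cells, had 2.65, 0 and 2.54 FPKM in the same libraries. Both keratins and PITX1 were thus above 0 in lung replicates 1 and 3 and at 0 in replicate 2. Over the 15 squamous epithelium genes in the table, the summed level was 68.7, 37.0 and 78.2 FPKM in lung, the highest of the tissues other than stomach. PKP1 and DSP of that list were above 0 in all 3 lung libraries, with at least 0.804 and 0.428 FPKM. Replicate 2 thus held squamous reads too, and 5, 5 and 6 of the 15 genes were above 0 in lung replicates 1, 2 and 3. KRT6A, KRT6B, PERP, TRIM29, EVPL, PPL and SERPINB5 of that list were at 0 in all 3 lung libraries, and SFN made up most of the sum. KRT6B, PERP, EVPL, PPL and SERPINB5 had at most 1 read in the libraries of any tissue, so their zeros say little. The part of these keratin and squamous genes in the lung PITX1 value was not tested.

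FOXQ1, the forkhead gene of the 4, had a graded pattern. It had 321, 322 and 471 FPKM in stomach, against 39.6, 31.5 and 283 FPKM in liver. In kidney it had 13.6, 3.52 and 16.2 FPKM, and in lung 4.89, 7.57 and 14.8 FPKM. In brain it had 1.29, 2.92 and 0.633 FPKM, and it was at 0 in all 9 libraries of aorta, heart and spleen. Every stomach library lay above every other library, and liver replicate 3 came closest. By mean, the order was stomach (371 ± 86.0 FPKM), liver (118 ± 143), kidney (11.1 ± 6.71), lung (9.09 ± 5.14) and brain (1.62 ± 1.18; SD, n = 3 each). Kidney and lung overlapped, while the ranges of the other neighbours in this order did not. The step between brain and the tissues at 0 is not firm, since brain rested on 2, 5 and 1 reads, and 3 reads in a library of aorta, heart or spleen would give up to 3.21 FPKM. Pooled over libraries, FOXQ1 had 367 FPKM in stomach against 11.2 FPKM in the other 7 tissues, 32.8-fold, and 77.1% of its reads were in stomach. Liver replicate 3 held 146 of the 259 reads outside stomach, and without it the other tissues had 4.98 FPKM and the ratio was 73.6-fold.

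Contrasts that leave stomach out set the other 7 tissues against each other, which is not the difference on which FOXQ1 was chosen, although the same 21 libraries were the low side of that choice. In these contrasts 6 of the 7 tissues passed the call. Differences are on the log2(FPKM + 1) scale from the mean of the other 6 tissues, and a call needed a size of 1 or more with a limma adjusted p under 0.05 over 4260 genes. Liver was higher by 4.86 (SE 0.470, limma adjusted p = 5.50e-08), and 10.5% of all genes were called higher in liver. Kidney was higher by 1.60 (SE 0.470, limma adjusted p = 0.0112), where 10.4% of all genes were called higher. Lung was higher by 1.41 (SE 0.470, limma adjusted p = 0.0255), where 12.3% of all genes were called higher. Aorta, heart and spleen, all at 0, were each lower by 2.34 (SE 0.470, limma adjusted p = 0.000563, 0.000439 and 0.000423), and 8.83% of all genes were called lower in aorta, 17.8% in heart and 14.2% in spleen. Brain differed by -0.84 (SE 0.470, limma adjusted p = 0.158) and was not called. The SE is the same throughout because it pools the spread of all tissues, including those at 0 without spread. It is smaller than the liver or kidney libraries alone would give, with SDs of 1.72 and 1.05 in log2(FPKM + 1). The liver and kidney p-values thus look firmer than their own libraries allow. The SDs of lung and brain were lower, at 0.72 and 0.64. The kidney call was lost without kidney replicate 1 (1.36, limma adjusted p = 0.0810) or replicate 3 (1.24, limma adjusted p = 0.106), and the lung call without lung replicate 2 (1.46, limma adjusted p = 0.0742) or replicate 3 (1.02, limma adjusted p = 0.194).

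Liver replicate 3 stood apart for FOXQ1. Its 146 reads gave an exact 95% Poisson interval of 239 to 333 FPKM, above the intervals of replicate 1 (24.8 to 59.9) and replicate 2 (18.6 to 49.7). Without it the liver difference was 3.87 and still called. FOXA1, a forkhead factor of endodermal epithelia, was also highest in that library, with 24.5, 29.3 and 60.1 FPKM in liver replicates 1, 2 and 3. The hepatocyte enzyme gene HAO1 was close in the 3 liver libraries, at 1985, 1766 and 2063 FPKM. The 3 gastric secretory genes in the table, SLC26A9, PGC and ATP4A, were at 0 in all 3 liver libraries, as were BARX1 and PITX1. PGC and ATP4A had only 1 and 9 reads in the 3 stomach libraries, so their zeros say little. In liver replicate 3, 1 read would give 3.41 FPKM for BARX1 and 4.41 FPKM for PITX1. Squamous epithelium genes summed to 0.987, 1.92 and 0 FPKM in liver. The source of the high FOXQ1 value in liver replicate 3 was not tested.

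BARX2, the paralog of BARX1, was the least even of the 4. It had 0, 11.7 and 1.81 FPKM in stomach replicates 1, 2 and 3, from 0, 8 and 1 reads. In brain it had 0.839, 0.758 and 4.93 FPKM, from 1, 1 and 6 reads. In lung it had 2.11, 0 and 1.01 FPKM, from 2, 0 and 1 reads, and it was at 0 in aorta, heart, kidney, liver and spleen. Stomach, brain and lung overlapped, and replicate 2 alone put the stomach mean first. The mean was 4.51 ± 6.32 FPKM in stomach, 2.18 ± 2.38 in brain and 1.04 ± 1.06 in lung (SD, n = 3 each). Of its 20 reads, 9 (45.0%) were in the 3 stomach libraries and 11 in the 21 others. Pooled over libraries, that is 4.90 FPKM in stomach against 0.615 FPKM in the other 7 tissues, 7.97-fold, and the ratio was 1.41-fold without stomach replicate 2 and 16.3-fold without brain replicate 3. In the contrast that leaves stomach out, brain was higher than the mean of the other 6 tissues by 1.27 (SE 0.460, limma adjusted p = 0.0272), in a contrast where 24.1% of all genes were called higher. That SE pools all 8 tissues, including those at 0. It is smaller than the brain libraries alone would give, with an SD of 0.994 in log2(FPKM + 1). That call was lost without brain replicate 3 (0.70, limma adjusted p = 0.313), and lung was not called (0.65, SE 0.460, limma adjusted p = 0.312).

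**Figure D1:**
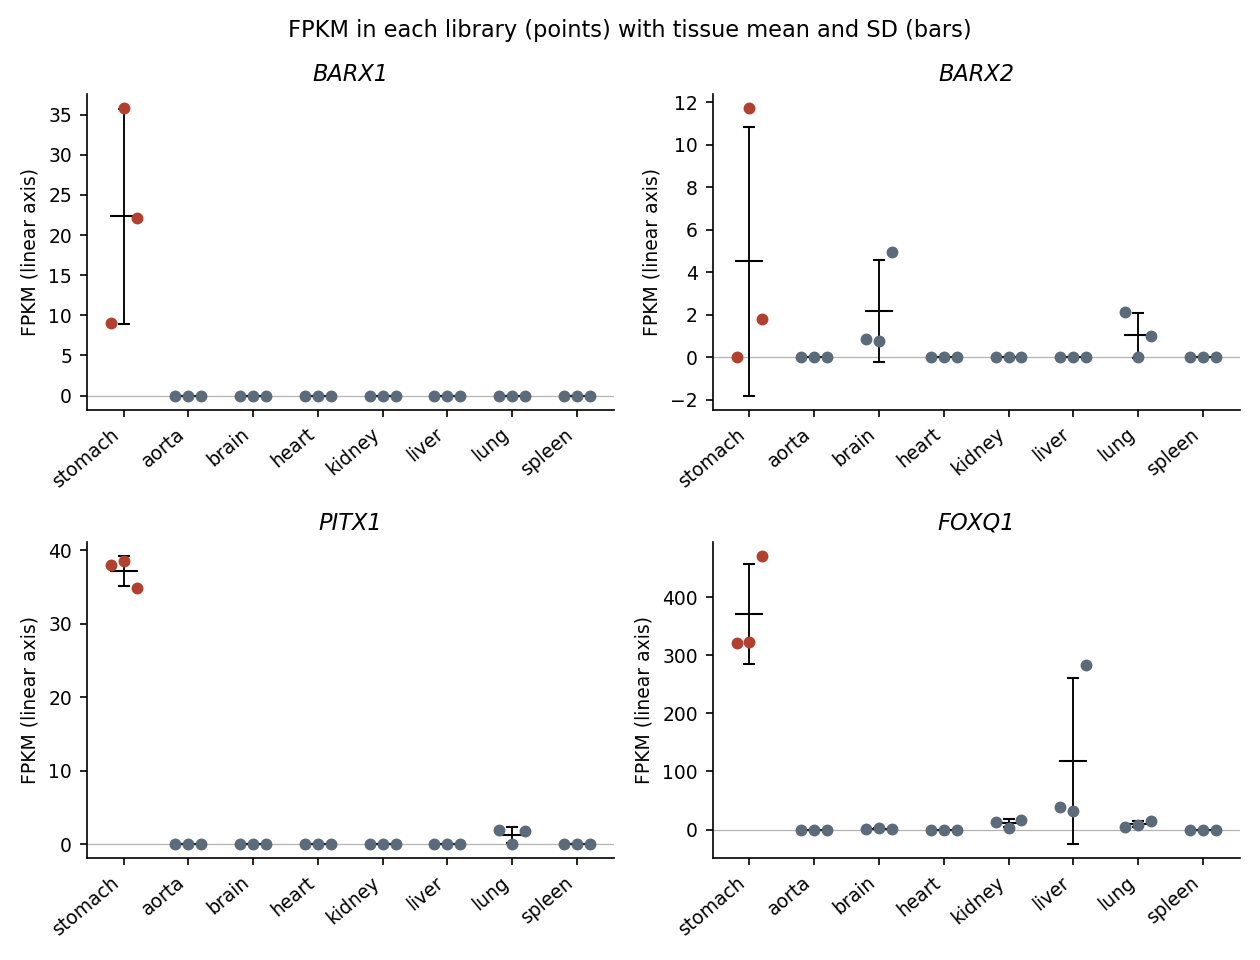
FPKM of the 4 genes (linear axes, one panel a gene) in 8 tissues, with a point for each library, stomach in red and leftmost, and bars for the tissue mean and SD (n = 3), which run below 0 where the SD exceeds the mean. BARX1 lies at 0 outside stomach, PITX1 has 1.85 and 1.78 FPKM in lung, FOXQ1 reaches 283 FPKM in liver replicate 3, and BARX2 overlaps between stomach, brain and lung.

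As a description of the contrast on which the genes were chosen, the log2(FPKM + 1) level in stomach minus its mean over the other 7 tissues was 6.51 for FOXQ1 (SE 0.465), 5.11 for PITX1 (SE 0.204), 4.35 for BARX1 (SE 0.211) and 1.39 for BARX2 (SE 0.456). Each SE pools the spread of all 8 tissues, including those at 0 without spread. For BARX1 and BARX2 it is smaller than the stomach libraries alone would give, with SDs of 0.949 and 1.85 on this scale. Over all 4260 genes tested, 326 (7.65%) were called higher in stomach, 250 (5.87%) were called lower, and the median difference was -0.08. Leaving out stomach replicate 2 moved the BARX2 difference to 0.42, and leaving out stomach replicate 1 moved it to 2.25. With each of the 24 libraries left out in turn, PITX1 lay between 5.04 and 5.16, and FOXQ1 between 6.32 and 6.65. BARX1 had to stay at 4.35 without any 1 of the 21 libraries outside stomach, since it is at 0 in all of them. Without a stomach library it no longer passed the filter and could not be fitted.

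The 4 genes did not share an order among the 3 stomach libraries. BARX1 and BARX2 were highest in replicate 2 and lowest in replicate 1, and FOXQ1 was highest in replicate 3. PITX1 varied by less than 4 FPKM, which is less than its counting error. Skeletal muscle genes moved with replicate 2. MYH4, a fast skeletal myosin heavy chain, had 6.34, 28.4 and 0 FPKM in stomach replicates 1, 2 and 3, and the 11 skeletal muscle genes in the table summed to 13.97, 63.1 and 1.20 FPKM. The summed level was 0 in kidney and liver and 90.1 to 182 FPKM in lung. MYH7, TNNI2, TNNC2, RYR1 and CACNA1S of that list were at 0 in all 3 stomach libraries. Apart from MYH7, these had at most 1 read in the libraries of any tissue, so their zeros cannot be read as absence. The part of these muscle genes in the BARX1 and BARX2 values was not tested.

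Marker genes listed for other cell types of the stomach wall were read in each stomach library, at unequal levels. Squamous epithelium genes, which mark the forestomach of the mouse, summed to 356, 331 and 188 FPKM in stomach replicates 1, 2 and 3. SFN alone had 159 to 251 FPKM in the stomach libraries. KRT14 had 35.5, 31.3 and 4.53 FPKM and KRT17 had 56.3, 57.5 and 14.7 FPKM there, lowest in replicate 3 for both. KRT5, PERP, KRTDAP and SERPINB5 of that list were at 0 in all 3 stomach libraries, but each had at most 1 read in the libraries of any tissue. The 3 gastric secretory genes summed to 21.4, 39.5 and 20.4 FPKM in stomach, against 0 to 0.832 FPKM in the other 21 libraries. Smooth muscle genes summed to 1547, 1621 and 1245 FPKM, and genes of neurons and glia to 104, 69.3 and 42.9 FPKM. TPM1 alone had 1035 to 1359 FPKM, and the smooth muscle sum was 18940 to 21090 FPKM in heart, so it does not measure smooth muscle alone. LMOD1, CALD1 and CSRP1 of that list were at 0 in stomach, CALD1 and CSRP1 with at most 2 reads in any tissue. The neuron and glia sum was 135, 29.6 and 60.6 FPKM in aorta, so it did not set stomach apart. Pancreatic acinar genes were represented by 1 gene, at 0 in all 3 stomach libraries. Intestinal genes were represented by 1 gene at 0.463 FPKM in stomach replicate 2 and 0 in the other stomach libraries. HAO1 had 16.9 FPKM from 8 reads in stomach replicate 3, the library with the highest FOXQ1, and 0 in the other stomach libraries. The part of these markers in the levels of the 4 genes was not tested.

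**Figure D2:**
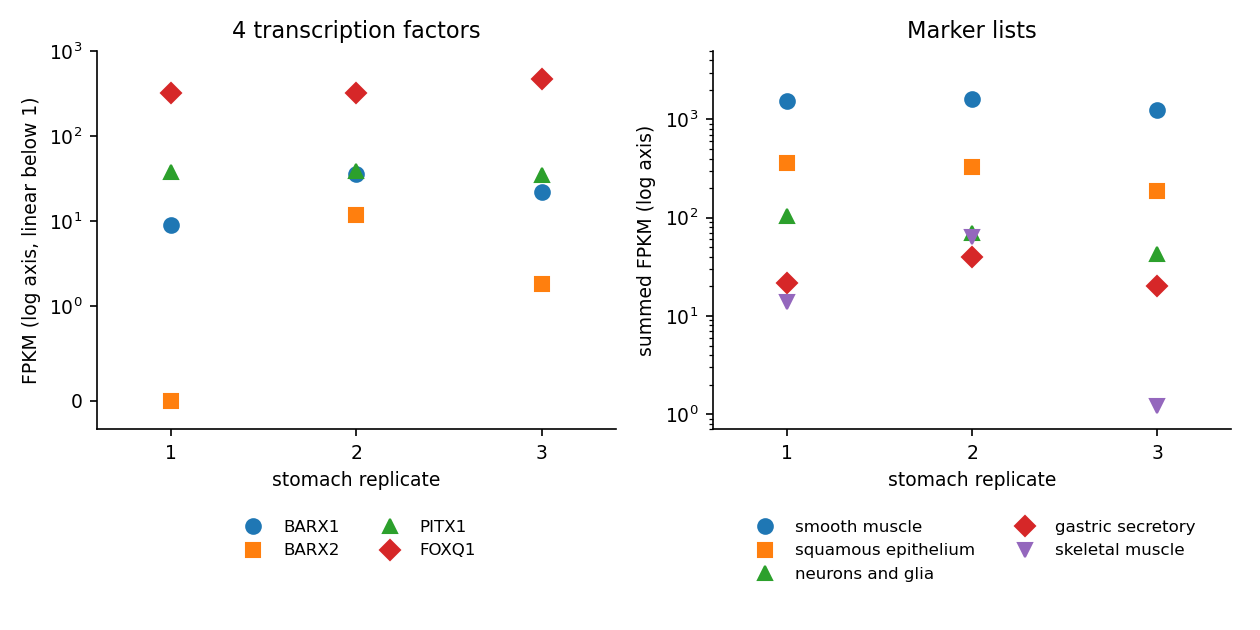
Left, FPKM of the 4 genes in stomach replicates 1 to 3, on a log axis that is linear below 1. Right, summed FPKM of 5 marker lists in the same libraries, on a log axis. BARX1, BARX2 and skeletal muscle genes peak in replicate 2, while PITX1 stays between 34.9 and 38.6 FPKM.

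Transcription factors of the gastric epithelium were mostly higher in stomach. Of 41 listed, 27 were in the table and 18 passed the filter, and of these 14 were called higher, none was called lower and 4 were not called, with a median difference of 2.35. A gene that passed the filter through stomach alone had to differ, so this count is not set against the 7.65% of all genes. FOXA1 had 167, 140 and 174 FPKM in stomach, against at most 60.1 FPKM in any other library, and was higher by 5.81 (SE 0.241, limma adjusted p = 6.21e-13). FOXA2, its paralog in endoderm, averaged 58.1 ± 13.3 FPKM in stomach (SD, n = 3) and was higher by 4.12 (SE 0.294, limma adjusted p = 2.23e-09), with up to 63.7 FPKM in liver. KLF4, a zinc finger factor of differentiating surface epithelium, averaged 227 ± 26.7 FPKM in stomach and was higher by 4.99 (SE 0.403, limma adjusted p = 1.31e-08). ESRRG, an orphan nuclear receptor known from acid-secreting parietal cells, averaged 98.4 ± 3.49 FPKM in stomach and was higher by 4.38 (SE 0.234, limma adjusted p = 3.22e-11). KLF5, a Krüppel-like factor of proliferating epithelium, was higher by 3.87, and XBP1, a factor of the unfolded protein response in secretory cells, by 1.74.

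Some of the factors higher in stomach belong to endocrine cells and were also read in brain. INSM1, a zinc finger factor of neuroendocrine cells, was higher by 3.18 and NKX2-2 by 1.50, and for both the highest library outside stomach was a brain library. SOX2, which marks the foregut and neural stem cells, was higher by 1.61 (SE 0.202, limma adjusted p = 4.57e-06), with 2.72, 3.59 and 8.85 FPKM in stomach against 9.29 to 13.4 FPKM in brain, 4.13 to 4.81 FPKM in lung and 0 in the other tissues. Every stomach library was thus below every brain library in SOX2, and the call compares stomach with the mean of 7 tissues. GATA6 was higher by 1.89, and SOX9 and GRHL2 by 2.37 and 2.47. HNF4A, a factor of intestine and liver, was at 0 in all 3 stomach libraries, as were ESRRB, EHF, GRHL1, ONECUT2, RUNX3 and FOXM1. Apart from ONECUT2, with 42 reads in liver, each of these had at most 1 read in the 3 libraries of any tissue, HNF4A in liver included. Their zeros in stomach thus cannot be read as absence.

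Mesenchymal transcription factors, the group to which BARX1 belongs in the developing stomach, went in both directions. Of 35 listed, 28 were in the table and 25 passed the filter, and of these 9 were called higher, 3 were called lower and 13 were not called, with a median difference of 0.32, against 7.65% higher, 5.87% lower and a median of -0.08 over all genes. ISL1, a LIM homeobox factor of the pyloric mesenchyme, had 29.6, 21.1 and 27.7 FPKM in stomach, against at most 6.76 FPKM elsewhere, and was higher by 4.03 (SE 0.300, limma adjusted p = 4.32e-09). SIX2, a homeobox factor known from the pyloric sphincter, had 7.11, 10.01 and 12.3 FPKM in stomach, against at most 1.80 FPKM elsewhere, and was higher by 3.10 (SE 0.282, limma adjusted p = 6.79e-08). HOXC5 and HOXC4, homeobox genes of one cluster that mark position along the body, were higher by 3.27 and 2.69, and HOXC5 ranged from 11.5 FPKM in stomach replicate 3 to 105 FPKM in stomach replicate 2. PBX3 and MEIS1, cofactors of HOX proteins, were higher by 1.71 and 1.18. ZEB1, ZEB2 and MEF2C were lower by 1.10, 1.37 and 1.55 on that scale. FOXF1, FOXL1, HOXA4, TBX3 and TCF21 were at 0 in all stomach libraries. FOXF1 and FOXL1 had at most 1 read in the libraries of any tissue and HOXA4 at most 2. The zeros of FOXF1, FOXL1 and HOXA4 thus cannot be read as absence.

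**Figure D3:**
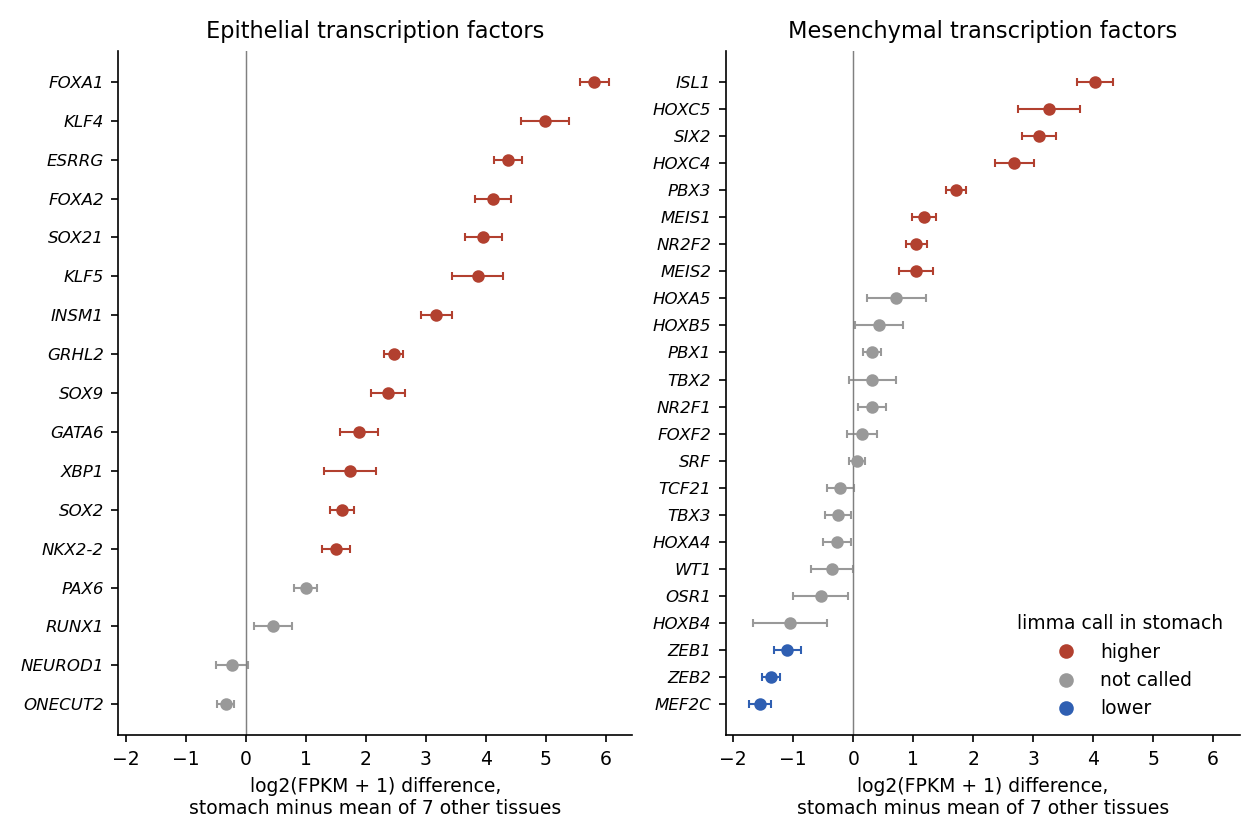
Difference in log2(FPKM + 1) between stomach and the mean of the other 7 tissues, with SE, for the transcription factors of each list that passed the filter and are reported here, ordered by difference. Red marks genes called higher by limma, blue lower and grey not called. FOXA1 leads the epithelial list at 5.81 and ISL1 the mesenchymal list at 4.03.

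Few Wnt antagonists, the class of genes that includes those Barx1 is known to raise in mouse, were in the table. Of 11 listed, 4 were in the table and 3 passed the filter, and 1 of these was called higher, none was called lower and 2 were not called, with a median difference of 0.70, against 7.65% higher and 5.87% lower over all genes. SFRP1, which binds Wnt proteins outside the cell, had 38.3, 20.9 and 23.2 FPKM in stomach and was higher by 1.41 (SE 0.341, limma adjusted p = 0.00370), although kidney had 54.2 to 68.2 FPKM. That call was lost without stomach replicate 1 (1.16, limma adjusted p = 0.0502). SFRP2 had 13.7, 12.1 and 7.42 FPKM in stomach, against 319 to 473 FPKM in aorta, and was not called (0.70, SE 0.366, limma adjusted p = 0.167). Both were highest in stomach replicate 1, where BARX1 was lowest. BARX1 rested on 4 reads there, and its Poisson intervals in replicates 1 and 2 overlap, so its order among the stomach libraries is not firm. A link between BARX1 and these 2 genes was not tested.

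Relatives of the 4 genes did not move as one group. Of 11 BARX paralogs and related homeobox genes, 5 were in the table and 3 passed the filter, 1 called higher and 2 not called, with a median difference of -0.65, against 7.65% higher and 5.87% lower over all genes. The one called was DLX1 (1.23, SE 0.314, limma adjusted p = 0.00568), which averaged 4.22 ± 2.86 FPKM in stomach (SD, n = 3) and reached 142 FPKM in brain. That call was lost without stomach replicate 1 (0.82, limma adjusted p = 0.103), with a pseudocount of 5 (0.23, limma adjusted p = 0.386) and under voom on recovered reads (limma adjusted p = 0.0596). Of 26 forkhead genes other than FOXQ1, 18 passed the filter, 5 were called higher, 2 lower and 11 were not called, with a median difference of 0.16, against 7.65% higher and 5.87% lower over all genes. Besides FOXA1 and FOXA2, those higher were FOXP2 (2.12), FOXO6 (1.93) and FOXD3 (1.73), and those lower included FOXC1 (-1.08). The sources used here do not say how reads from homeobox or forkhead stretches shared by such relatives were assigned, and these may have been split between them.

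Barx1, Pitx1 and Foxq1 lie on mouse chromosome 13 and Barx2 on chromosome 9, in the GRCm38.p6 annotation. Of 34 neighbouring genes listed, 19 were in the table and 13 passed the filter. Of these, 1 was called higher in stomach, 5 were called lower and 7 were not called, with a median difference of -0.72. Over all genes, 7.65% were called higher and 5.87% lower. This list was not set by gene order alone, and it holds SENCR, ETS1, ST14 and APLP2. Mouse gene order alone leaves these out and adds genes named below. By that order 14 genes passed the filter, 1 called higher, 3 called lower and 10 not called. The one called higher was GMDS, the third gene after Foxq1 in mouse gene order. GMDS, the enzyme of the first step from GDP-mannose to GDP-fucose, had 100, 103 and 131 FPKM in stomach, against 0 to 8.36 FPKM in the other 21 libraries. The groups did not overlap, and the difference was 5.21 (SE 0.367, limma adjusted p = 2.03e-09). GMDS and FOXQ1 were both highest in stomach replicate 3, but GMDS stayed at 0, 1.78 and 2.96 FPKM in liver, where FOXQ1 was second highest.

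The genes between them did not follow FOXQ1. FOXF2, a forkhead factor of gut and lung mesenchyme that comes first after Foxq1, had 0, 0 and 3.02 FPKM in stomach, against 10.6, 13.97 and 10.2 FPKM in lung, and was not called (0.15, SE 0.253, limma adjusted p = 0.693). FOXC1, a forkhead factor of vessels that comes second, had 0, 0.755 and 0 FPKM in stomach, against 27.8, 23.3 and 28.5 FPKM in aorta, and was lower by 1.08 (SE 0.342, limma adjusted p = 0.0228). That call was lost without stomach replicate 1 or 3 (-0.95 each, limma adjusted p = 0.123 and 0.121), with a pseudocount of 0.1 (limma adjusted p = 0.0995) or 5 (-0.52), under TPM scaling (limma adjusted p = 0.0591) and under voom on recovered reads (limma adjusted p = 0.0544). The neighbours of Pitx1 that were tested, MACROH2A1 (0.25) and CXCL14 (-0.15), were not called, nor was PHF2 (-0.72), beside Barx1. Around Barx2, NFRKB (-0.77), PRDM10 (0.36) and APLP2 (0.57) were not called, while KCNJ1, a potassium channel of the kidney tubule, and ETS1 and FLI1, transcription factors of blood and endothelial cells, were lower by 1.66, 2.25 and 1.78. The calls of KCNJ1 and FLI1 were lost under voom on recovered reads (-1.51 and -1.82). PTPDC1, TMEM45B, ARHGAP32, KCNJ5, ST14 and NEUROG1 did not pass the filter. The count by mouse gene order alone took genes within 4 positions of each of the 4, and so included genes outside the list. ID4 (-0.14), FAM120A (0.90) and WNK2 (0.27), near Barx1, and MYLK4 (-0.78), beside Gmds, were not called, and NINJ1, near Barx1, did not pass the filter.

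**Figure D4:**
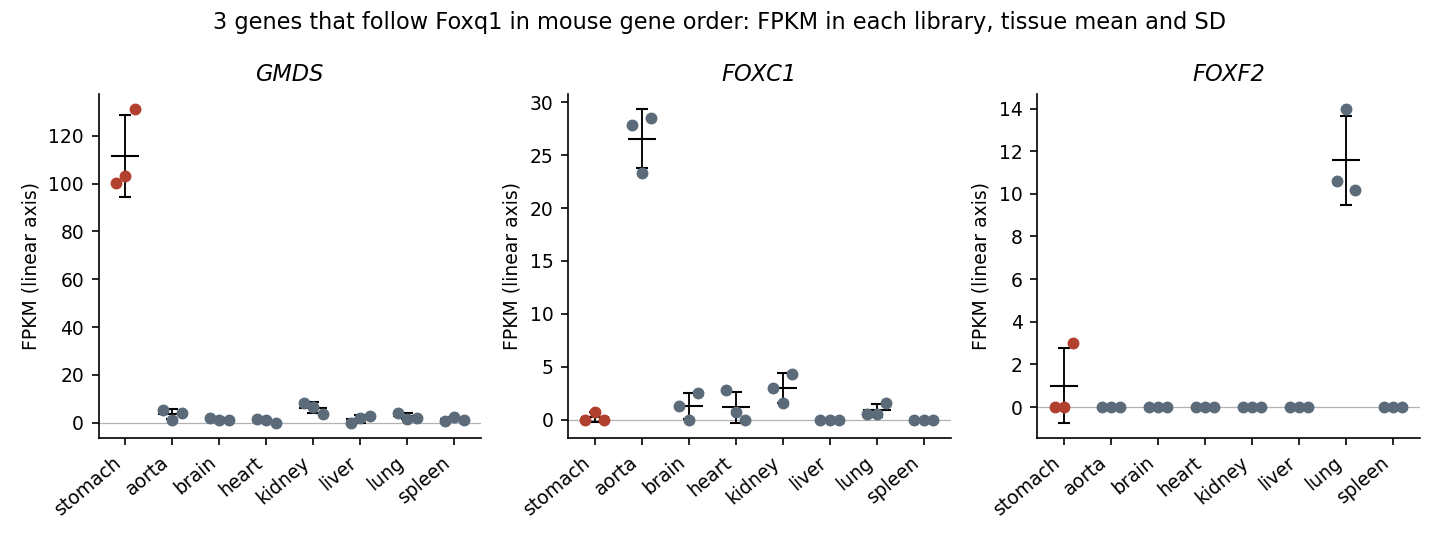
FPKM (linear axes) of GMDS, FOXC1 and FOXF2 in 8 tissues, with a point for each library, stomach in red and leftmost, and bars for the tissue mean and SD (n = 3). GMDS lies at 100 to 131 FPKM in stomach and at most 8.36 FPKM elsewhere, while FOXC1 peaks in aorta and FOXF2 in lung.

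SENCR, the transgene, is counted among the neighbours of Barx2 because FLI1, on whose opposite strand it is read, lies there. SENCR was lower in stomach by 1.37 (SE 0.449, limma adjusted p = 0.0278), with 13.2, 4.64 and 14.3 FPKM, and the call was lost without stomach replicate 2 (-0.91, limma adjusted p = 0.229) and under voom on recovered reads (limma adjusted p = 0.148). The sources used here do not say how far the artificial chromosome extends or on which strand reads were counted, so reads of SENCR and FLI1 cannot be told apart. In aorta, heart, kidney, liver and spleen, SENCR had 7.37 to 102 FPKM while BARX2 was at 0 in all 15 libraries.

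The genes most like each of the 4 across the 24 libraries were found by Pearson correlation of log2(FPKM + 1) among the genes that passed the filter. The points share libraries and depth, and the 3 stomach libraries set most of the value, so the correlations are a description. BARX1 was most like SLC26A9 (r = 0.978), a chloride and bicarbonate transporter of the gastric surface, then PLEK2 (0.976), PITX1 (0.955), ZBTB7C (0.944) and ADGRG2 (0.928). PLEK2 rests on as few as 1 read in each stomach library and on none elsewhere, so its likeness is no finding. SLC26A9 had 20.5, 28.0 and 18.4 FPKM in stomach, against at most 0.832 FPKM elsewhere, and like BARX1 it was highest in replicate 2. PITX1 was most like KRT17 (r = 0.981), SLC26A9 (0.972), PLEK2 (0.970), BARX1 (0.955) and KRT14 (0.952). SLC26A9 and the pair itself thus stand on both lists.

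FOXQ1 was most like genes that are read in every tissue or in several epithelia. Its nearest were EPB41L4B (r = 0.915), GOLPH3 (0.903), RAB11A (0.901), FOXA1 (0.878) and SELENOI (0.845). EPB41L4B, a membrane-linked protein of the band 4.1 family, had 16.0, 22.3 and 31.1 FPKM in stomach, against 39.0, 16.1 and 26.7 FPKM in liver, so stomach and liver overlapped where FOXQ1 did not. RAB11A, a small GTPase of recycling endosomes, had 843, 838 and 712 FPKM in stomach, against 181 to 401 FPKM elsewhere. Genes most like BARX2 included ZSWIM8-AS1 (r = 0.795), STX6 (0.764), WDR13 (0.754) and CRELD1 (0.712). ZSWIM8-AS1, STX6 and WDR13 were highest in stomach replicate 2, the library with the most BARX2, at 2.06, 4.27 and 3.58 FPKM, and with BARX2 resting on 20 reads these correlations are no finding.

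**Figure D5:**
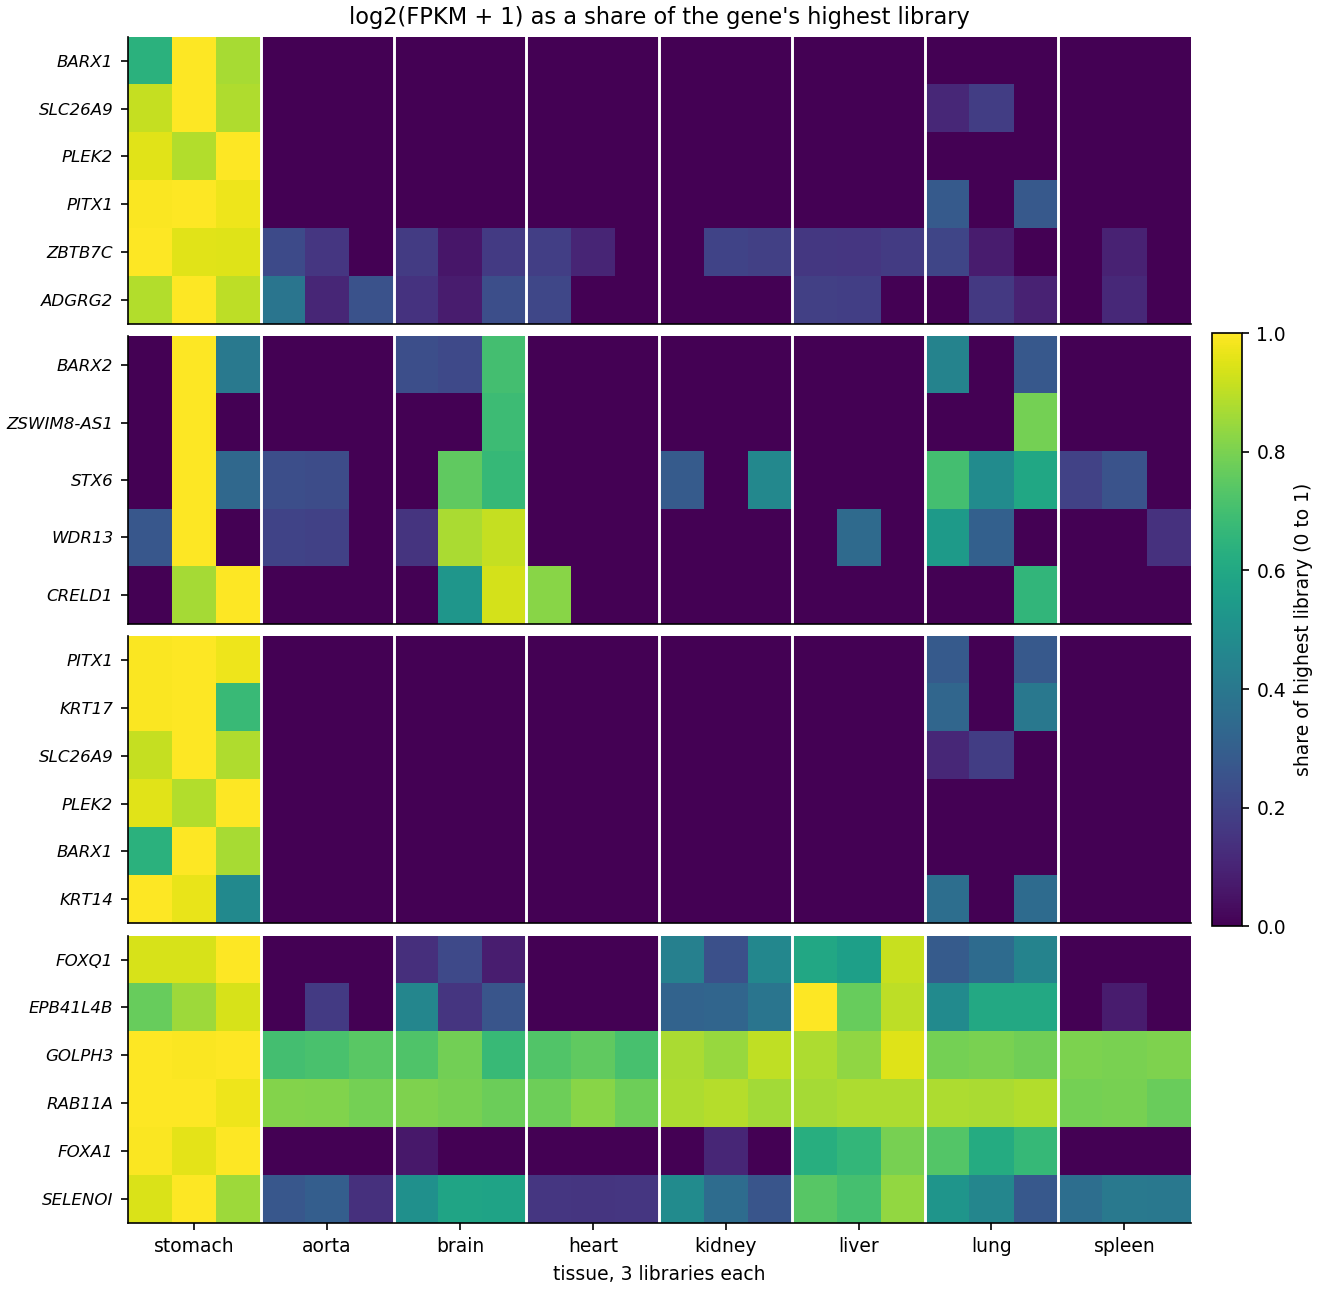
Each row is a gene and each column 1 of 24 libraries, grouped by tissue with stomach leftmost, and colour gives log2(FPKM + 1) as a share of the gene's highest library. The blocks show BARX1, BARX2, PITX1 and FOXQ1, each above its most alike genes that are reported here, 5 at most. BARX1 and PITX1 are bright in stomach alone or nearly so, FOXQ1 and its likes extend to liver, and the BARX2 block is lit in single libraries.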

How the data were processed

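Bulk RNA sequencing of 8 tissues of SENCR-BAC transgenic mice was analysed, 3 libraries a tissue, grouped by sample title. RNA extraction used TRIzol and library preparation a VAHTS Universal V10 kit, per the labels' protocols. Tools named are fastp, HISAT2 and HTSeq with the human build GRCh38.p13, per the submitters' processing notes. The sources used here give no version, annotation or strand setting. FPKM as deposited by the authors were used as log2(FPKM + 1), a scale on which changes at low levels look smaller than they are.

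The 4260 genes that reached 1 FPKM in 3 or more libraries were fitted by limma 3.58.1 (R 4.3.3, mean-variance trend) to 8 tissue means, with 1 spread for each gene shared by all tissues. Benjamini-Hochberg adjustment was made within each contrast. A call needed a size of 1 or more and an adjusted p under 0.05. Whole reads were recovered from FPKM steps with a tolerance of 0.002 and used for depth, exact Poisson intervals and 1 alternative. Fits were repeated with a pseudocount of 0.1 or 5, without the filter or with it at 5 FPKM, under 3 other scalings, with a replicate block, without the minimum difference and with each library left out. The fit was checked on simulated data. Python 3.11.15 with pandas 2.3.3, scipy 1.17.1 and matplotlib 3.10.9 did the rest.

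The 4 genes and the gene lists were chosen with earlier results of these data known. Named genes are the 4, the 5 most correlated with each, up to 4 called genes with the largest difference and 2 further genes with the highest stomach level in each list, and every neighbour in the table. Some genes that this rule names are not reported here. Other genes were named after their values were seen. Promoter sequence and gene order come from RefSeq on GRCm38.p6, and no mouse coordinate was set against the human build.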

Additional observations from a re-analysis of the deposited data

How the results depend on the processing

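The direction of the 4 stomach differences was kept under every alternative that gave a value. The genes were chosen on their levels in stomach, so this is a description and no test. BARX1 gave no value without a stomach library and BARX2 none with the filter at 5 FPKM, since each then missed the filter. With a pseudocount of 0.1 in place of 1 the differences were 7.60 for BARX1, 8.14 for PITX1 and 8.09 for FOXQ1. With 5 they were 2.32, 3.03 and 5.16. TPM scaling gave 5.88, 6.54 and 7.18 for BARX1, PITX1 and FOXQ1, and median-ratio scaling gave 4.96 for PITX1. These scalings moved the median of all genes to -0.16 and -0.18, against -0.08. Limma voom on recovered reads, chosen after seeing the data, gave 4.995 for PITX1 and 7.09 for FOXQ1. A pseudocount of 5 left 163 genes higher and 75 lower in stomach, and no minimum difference gave 588 higher and 588 lower. Squamous genes called higher were 3 with a pseudocount of 5 and 3 with a filter at 5 FPKM. Leaving out 1 library gave 289 to 331 genes higher and 208 to 267 lower. FOXQ1 in brain turned to 0.13 with a pseudocount of 0.1 (limma adjusted p = 0.868) and was called lower at -1.40 after quantile normalization (limma adjusted p = 0.0113). BARX2 in brain lost its call with a pseudocount of 5 (0.43), quantile normalization (0.69) and voom (1.33). A pseudocount of 5 ended the FOXQ1 calls in kidney (0.62) and lung (0.45), and median-ratio scaling the lung call (1.23). Of 1724 alternatives over 51 called list genes, 1668 kept the call, 56 lost it and 0 reversed. The skeletal myosins MYH4 and MYH1 lost theirs without stomach replicate 2. A replicate block cannot move a difference here, since every tissue has the same 3 replicate numbers, so BARX1 stayed at 4.35. With that block, 329 genes were higher and 249 lower. After tissue means were taken out, libraries of the same number from different tissues correlated at r = -0.06 to 0.13 (median 0.02). Libraries of other numbers correlated at r = -0.11 to 0.08 (median -0.02). These values cannot tell whether libraries of the same number share an animal. Pooled ratios with 1 library left out were also chosen after seeing the data. Depth limits BARX2 most, with 20 reads in all.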

Other observations

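Some genes of the enteric nervous system were read in the stomach libraries, while RET, ELAVL3, UCHL1, SOX10 and GFAP of the same list were at 0 in all 3. UCHL1 had no reads and GFAP 2 reads in brain, so the zeros of UCHL1 and GFAP cannot be read as absence. Of 16 listed, 11 were in the table and 8 passed the filter, 3 were called higher in stomach, none was called lower and 5 were not called, with a median difference of -0.13, against 7.65% higher and 5.87% lower over all genes. SNAP25, a protein of synaptic vesicle release, averaged 23.0 ± 4.82 FPKM in stomach (SD, n = 3) and was higher by 2.25 (SE 0.550, limma adjusted p = 0.00403), a call lost with a pseudocount of 5 (0.81, limma adjusted p = 0.0715). ELAVL4, a neuronal RNA-binding protein, averaged 8.93 ± 4.55 FPKM and was higher by 1.88 (SE 0.359, limma adjusted p = 0.000492). 

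Of 16 smooth muscle genes, 12 were in the table and 9 passed the filter, 4 were called higher in stomach, none was called lower and 5 were not called, with a median difference of 1.00. Over all genes, 7.65% were called higher and 5.87% lower. ACTG2, the actin of visceral smooth muscle, had 212, 192 and 165 FPKM in stomach, against at most 75.6 FPKM in aorta, and was higher by 5.84 (SE 0.388, limma adjusted p = 9.46e-10). MYH11, the smooth muscle myosin, was not called (0.67, SE 0.233, limma adjusted p = 0.0380), since its difference was under 1. Of 18 skeletal muscle genes, 11 were in the table and 6 passed the filter, 2 were called higher, 1 lower and 3 were not called, with a median difference of 0.93, against the same 7.65% and 5.87% over all genes. Of 43 squamous genes, 15 were in the table and 6 passed the filter, all 6 called higher with a median difference of 3.01, although most of these passed it through stomach. Of 40 gastric secretory genes, 3 were in the table and 1, SLC26A9, passed the filter. It did so through the 3 stomach libraries alone, so its difference of 4.45 is a description. Of 22 pancreatic and 12 intestinal genes, 1 each was in the table and none was tested.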
